A study of Mus musculus with 2 samples.

Results

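The Zscan4 genes are a family of near-identical mouse genes that mark a rare 2-cell-like state of embryonic stem cell cultures. The family was taken as the 6 rows of the deposited table with the gene symbols Zscan4a to Zscan4f, out of 17817 genes in all. These genes were chosen because the difference between the Setd2 knockout library and the wild-type library was already known for them. That difference is therefore given as a description, with no test.

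The RNA of 2 lines of mouse embryonic stem cells (mESCs) was sequenced, 1 library from Setd2 KO cells and 1 library from wild-type cells. Setd2 encodes the methyltransferase that places trimethylation on lysine 36 of histone H3 over transcribed genes. Both lines were of mixed 129SV/C57BL/6 background and were taken at passages 10 to 12. Both had grown on feeder cells, which were reduced by letting them settle on gelatin for 0.5 h. The stem cells then had 1 further passage on gelatin and were collected 2 days later. The sources used here do not give how Setd2 was disrupted or how many clones stand behind each line. Neither genotype had a replicate, so every difference below describes these libraries, and the difference between genotypes cannot be told apart from one between lines or cultures.

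Zscan4 proteins carry a SCAN domain, through which such proteins bind each other, and a set of zinc fingers that bind DNA. In the mouse the genes are transcribed in the 2-cell embryo, when the embryo's own genome is first switched on. In embryonic stem cell cultures they are active in few cells at a time, in a passing state, and are known for a part in telomere lengthening and genome stability. The transcription factor Dux acts upstream of them in that state.

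The 6 genes lie in 1 cluster on mouse chromosome 7. In the mm9 coordinates of the table it runs over 608.1 kb, from the start of Zscan4a at 11379590 to the end of Zscan4f at 11987667. Zscan4c and Zscan4f are on the plus strand and the other 4 members on the minus strand. In the RefSeq annotation of GRCm38.p6, 4 members are protein coding (Zscan4b, Zscan4c, Zscan4d and Zscan4f), Zscan4a is a transcribed pseudogene and Zscan4e a pseudogene. Over the exons of Zscan4c, carried to the other members by alignment, the members differed little. Across the 15 pairs, identity ran from 96.6 to 99.7%, with a median of 97.4%, and in the rest of the gene spans from 95.5 to 99.4%. The closest pair was Zscan4b and Zscan4e, with 6 differences over 1772 bases aligned to these exons. Zscan4c and Zscan4f came next, with 9 differences over 1856 bases.

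Read-length stretches of the coding sequence show how far the members can be told apart. In all, 63 windows of 76 bases in the coding exons were identical in all 6 members. One of them is shown because a read of it fits every member. In mm9 it lies at chr7:11592034-11592109 on the plus strand in Zscan4c, and it is written 5′ to 3′.
all 6 members: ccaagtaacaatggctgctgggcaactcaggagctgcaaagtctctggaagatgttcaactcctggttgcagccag

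The coding stretch of 76 bases with the most positions that differ among members is shown for each member. Capitals mark the 10 positions at which the members are not all alike. The mm9 positions are Zscan4a chr7:11381010-11381085 on the minus strand, Zscan4b chr7:11487008-11487083 on the minus strand, Zscan4c chr7:11594405-11594480 on the plus strand, Zscan4d chr7:11748135-11748210 on the minus strand, Zscan4e chr7:11892637-11892712 on the minus strand and Zscan4f chr7:11986598-11986673 on the plus strand, each written 5′ to 3′ along the gene.
Zscan4a: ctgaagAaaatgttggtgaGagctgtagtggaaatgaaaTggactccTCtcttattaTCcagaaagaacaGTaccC
Zscan4b: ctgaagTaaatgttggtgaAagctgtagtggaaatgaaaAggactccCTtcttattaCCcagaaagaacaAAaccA
Zscan4c: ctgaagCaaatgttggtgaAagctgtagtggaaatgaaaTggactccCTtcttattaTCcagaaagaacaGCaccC
Zscan4d: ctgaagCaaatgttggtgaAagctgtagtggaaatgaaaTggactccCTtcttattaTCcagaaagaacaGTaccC
Zscan4e: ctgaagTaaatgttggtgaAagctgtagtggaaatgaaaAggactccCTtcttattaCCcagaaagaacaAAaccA
Zscan4f: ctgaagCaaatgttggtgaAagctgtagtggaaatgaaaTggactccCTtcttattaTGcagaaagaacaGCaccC
Even there Zscan4b and Zscan4e had the same letters, so that a read of this stretch cannot separate them. Zscan4c differed from Zscan4d, and from Zscan4f, by a single letter. Of 1515 coding positions present in all 6 members, 72 differed between members.

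A search of the whole mm9 genome showed how often a read-length window of each member had another place. For Zscan4f, 95.2% of the 1632 exon windows had an identical copy elsewhere, for Zscan4e 91.1% of 1445, for Zscan4b 88.2% of 1445 and for Zscan4c 77.2% of 1978. The share was lower for Zscan4a, at 56.3% of 1827 windows, and lowest for Zscan4d, at 38.7% of 1692. With up to 2 mismatches allowed, no window of Zscan4b, Zscan4e or Zscan4f had a single place, against 110 windows of Zscan4c, 215 of Zscan4a and 279 of Zscan4d. All of these other places lay on chromosome 7, in the cluster or past its end. They included the pseudogene Zscan4-ps2 and 4 further stretches between 11650387 and 12569062. No row of the table carries the symbol Zscan4-ps1, Zscan4-ps2 or Zscan4-ps3, so reads from those copies have no row of their own. The sources used here do not give how reads with several places were counted. For that reason the level of a single member is uncertain, and the family sum is given beside it. The sum is less so but not free of this. With up to 2 mismatches, from 64.8% (Zscan4d) to 100% (Zscan4f) of a member's windows also fit Zscan4-ps2.

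**Figure D1:**
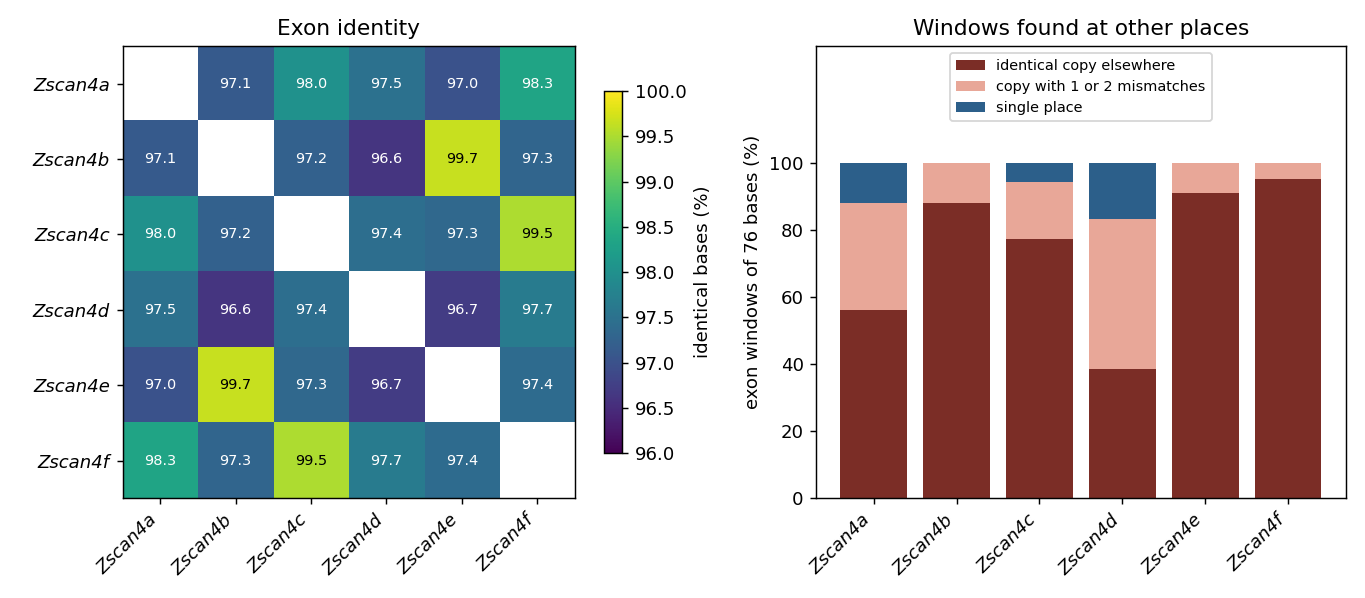
Sequence shared among the Zscan4 genes. Left, the share of identical bases (%) for each pair of members over the aligned exons of Zscan4c, from 96.6 to 99.7%. Right, the share of exon windows of 76 bases (%) with an identical copy elsewhere in the genome, with a copy at 1 or 2 mismatches, or with a single place. Zscan4d and Zscan4a have the most windows at a single place, and Zscan4b, Zscan4e and Zscan4f have 0.

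The values themselves bear on the counting. They are on a scale of sequenced bases divided by the read length of 76, called read equivalents here, and undivided reads give whole numbers of bases. Among values under 200 read equivalents, 93.1% of those of genes with no shared window were whole numbers of bases, within 0.05 of a base. The share was 70.6% for genes with 1 to 49% of their windows shared and 44.1% for genes with 50% or more. Of the 10 Zscan4 values under 200 read equivalents 3 were whole, and the other 2, of Zscan4c and Zscan4f in Setd2 KO cells, were not.

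Zscan4 was low in both libraries and higher in Setd2 KO cells, in each of the 6 members. Levels are given in CPM, the read equivalents of a gene scaled to a total of 1000000 over all genes, with 95% intervals that cover counting error only. The summed family stood at 22.3 CPM in Setd2 KO cells (interval 21.1 to 23.7), against 3.59 CPM in wild-type cells (3.11 to 4.12). These levels rest on 1162.5 read equivalents in Setd2 KO cells and 201.6 in wild-type cells. The ratio was 6.22 (interval 5.34 to 7.25), a log2 fold of 2.48 with 0.5 CPM added to each level. In bulk RNA, more cells in a state and more RNA per cell cannot be told apart.

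Zscan4f (gene number 665902, chr7:11983264-11987667), with the highest level per length in Setd2 KO cells, was at 6.73 CPM there and at 0.662 CPM in wild-type cells. That was a ratio of 10.2 (interval 7.26 to 14.7). Zscan4c (245109, chr7:11591094-11595896), the form reported to prevail in mouse embryonic stem cells, was at 4.77 CPM in Setd2 KO cells and 1.03 CPM in wild-type cells, 4.64-fold apart (3.45 to 6.25). It was the only member above 1 CPM in wild-type cells. Zscan4d (545913, chr7:11746992-11751497), the form reported to prevail in the mouse 2-cell embryo, was at 2.12 CPM in Setd2 KO cells and 0.505 CPM in wild-type cells, 4.19-fold apart (2.78 to 6.67). Zscan4b (665780, chr7:11486089-11490399) was at 2.51 CPM in Setd2 KO cells and 0.489 CPM in wild-type cells, 5.14-fold apart (3.44 to 8.24). The intervals of Zscan4b, Zscan4c and Zscan4d overlapped. That of Zscan4f lay above those of Zscan4c and Zscan4d and overlapped that of Zscan4b, and Zscan4f has 0 windows at a single place.

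The members that RefSeq lists as pseudogenes stood in the same direction. Zscan4a (434555, chr7:11379590-11384414) was at 2.87 CPM in Setd2 KO cells and 0.314 CPM in wild-type cells, 9.14-fold apart (5.46 to 15.5). Zscan4e (665848, chr7:11891727-11896031) was at 3.34 CPM in Setd2 KO cells and 0.593 CPM in wild-type cells, 5.64-fold apart (3.90 to 8.52). Summed, these 2 members were at 6.21 CPM in Setd2 KO cells and 0.907 CPM in wild-type cells, 6.85-fold apart (5.07 to 9.37). The 4 protein-coding members were at 16.1 CPM in Setd2 KO cells and 2.69 CPM in wild-type cells, 6.01-fold apart (5.03 to 7.18), and these intervals overlapped. The lowest member of the Setd2 KO library, Zscan4d, stood above the highest of the wild-type library, Zscan4c.

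**Figure D2:**
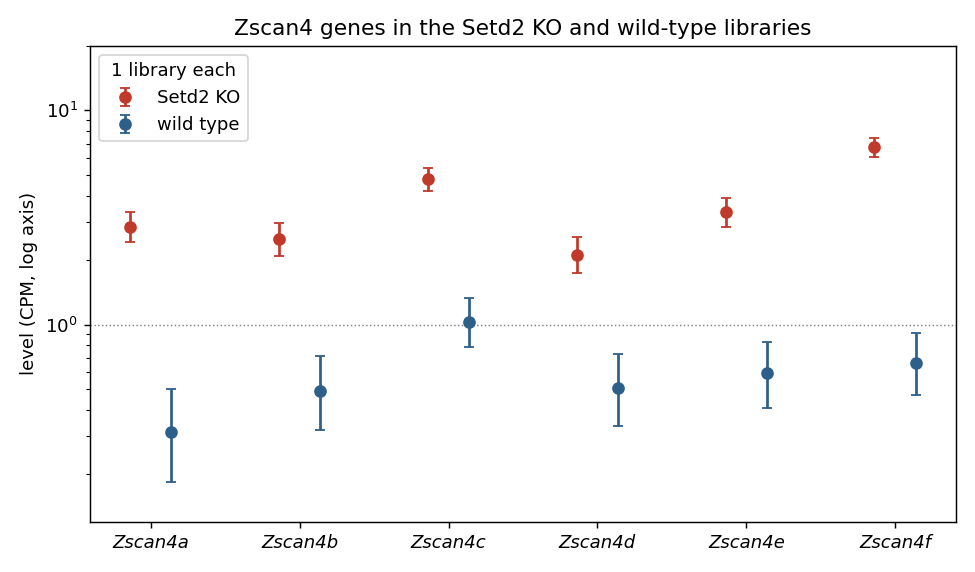
Level of each Zscan4 gene (CPM, log axis) in Setd2 KO cells (red, left of each pair) and wild-type cells (blue, right), 1 library each; bars are exact 95% Poisson intervals and cover counting error only, and the dotted line marks 1 CPM. The Setd2 KO values run from 2.12 to 6.73 CPM and the wild-type values from 0.314 to 1.03 CPM.

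All 6 members passed the floor of a mean of 1 CPM, but 5 of them were under 1 CPM in wild-type cells and passed only through the Setd2 KO library. All 6 were at least 2-fold higher there, beside 1.76% of all genes compared (238 of 13523); 2.11% (285) were at least 2-fold lower. Because the members were chosen on this contrast, nothing is read from their count. Over all genes compared, the folds of the members ranked from 15th (Zscan4f) to 100th (Zscan4d) from the top.

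**Figure D3:**
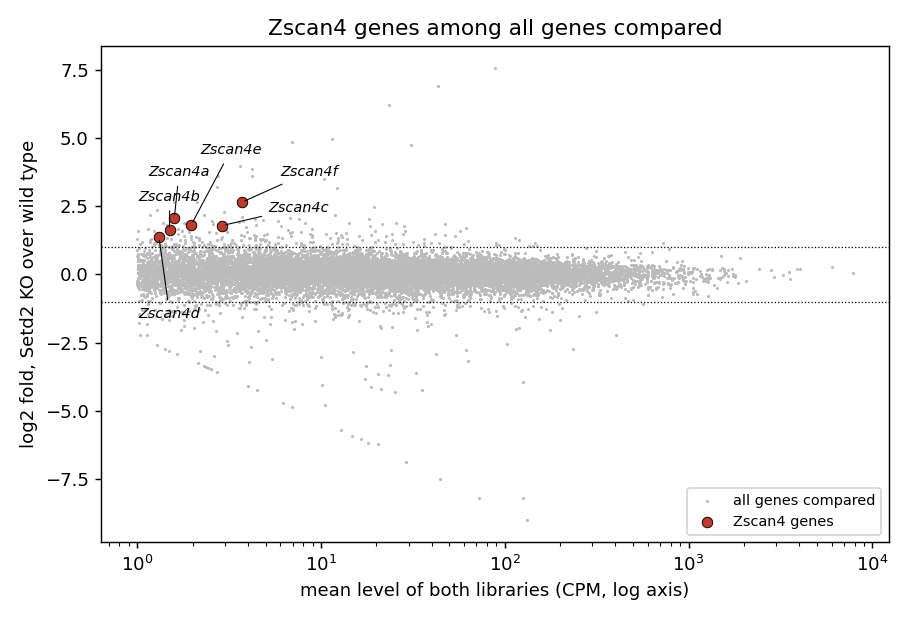
Log2 fold of the Setd2 KO library over the wild-type library (0.5 CPM added to each) against the mean level of both libraries (CPM, log axis) for all genes compared (grey) and the 6 Zscan4 genes (red); dotted lines mark 2-fold. The Zscan4 genes lie at log2 folds of 1.38 to 2.64 at the low end of the levels.

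Levels of different members can be set side by side only per length, here as CPM per kb of exon, and only as far as shared reads allow. In the Setd2 KO library the order was Zscan4f (3.35 CPM per kb), Zscan4c (2.10), Zscan4e (1.92), Zscan4b (1.44), Zscan4a (1.26) and Zscan4d (1.06). Only the step between Zscan4f and Zscan4c was larger than the counting intervals, and each of the later neighbours overlapped the next. In the wild-type library the order was Zscan4c (0.452 CPM per kb), Zscan4e (0.340), Zscan4f (0.330), Zscan4b (0.280), Zscan4d (0.254) and Zscan4a (0.138), and all neighbours overlapped. The highest member was 3.15 times the lowest in Setd2 KO cells and 3.28 times in wild-type cells. Zscan4a has no model in the annotation used, and its exons were placed by alignment to Zscan4c.

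The split of the family sum among its members is given as deposited. Zscan4f made up 30.1% of it in Setd2 KO cells (exact binomial interval 27.5 to 32.8%) and 18.4% in wild-type cells (13.2 to 24.4%). Zscan4c made up 21.4% in Setd2 KO cells (19.0 to 23.8%) and 28.7% in wild-type cells (22.6 to 35.5%). These intervals cover counting error in 1 library each and are no test of a difference between genotypes. Zscan4f has 0 windows at a single place, and the part of the authors' read placement in these shares was not tested. As 1 unit, Zscan4c and Zscan4f made up 51.5% of the sum in Setd2 KO cells and 47.1% in wild-type cells. This pair was at 11.5 CPM in Setd2 KO cells and 1.69 CPM in wild-type cells, 6.80-fold apart (5.46 to 8.52). The other close pair, Zscan4b and Zscan4e, was at 5.85 CPM in Setd2 KO cells and 1.08 CPM in wild-type cells, 5.41-fold apart (4.09 to 7.22). The pair ratios overlapped. Zscan4a took 12.8% of the sum in Setd2 KO cells and 8.74% in wild-type cells, and Zscan4d took 9.48% in Setd2 KO cells and 14.1% in wild-type cells.

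The nearest genes around the cluster are given with their values. No gene of the table lies between the members, and of the 3 nearest genes on each side 0 were 2-fold apart, with log2 folds from -0.17 to 0.41. Over all genes compared, 1.76% were 2-fold higher and 2.11% lower, so a count of 0 among so few says nothing particular about them. Zik1, a zinc finger gene 298.9 kb before the cluster, was at 29.5 CPM in Setd2 KO cells and 24.7 CPM in wild-type cells, 1.19-fold apart (1.11 to 1.28). The predicted gene Gm6900, at 137.3 kb the nearest row, was at 3.50 CPM in Setd2 KO cells and 4.0 CPM in wild-type cells. The predicted gene Gm5888 had a log2 fold of 0.41, and Gm6929 and Gm10179, on the far side, 0.15 and -0.06. The vomeronasal receptor gene Vmn1r82 was listed at 0 in Setd2 KO cells and had 1 read equivalent in wild-type cells, too few to reach 2-fold with 0.5 CPM added. Chromosome 7 as a whole had a median log2 fold of 0.00 over 1051 genes.

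**Figure D4:**
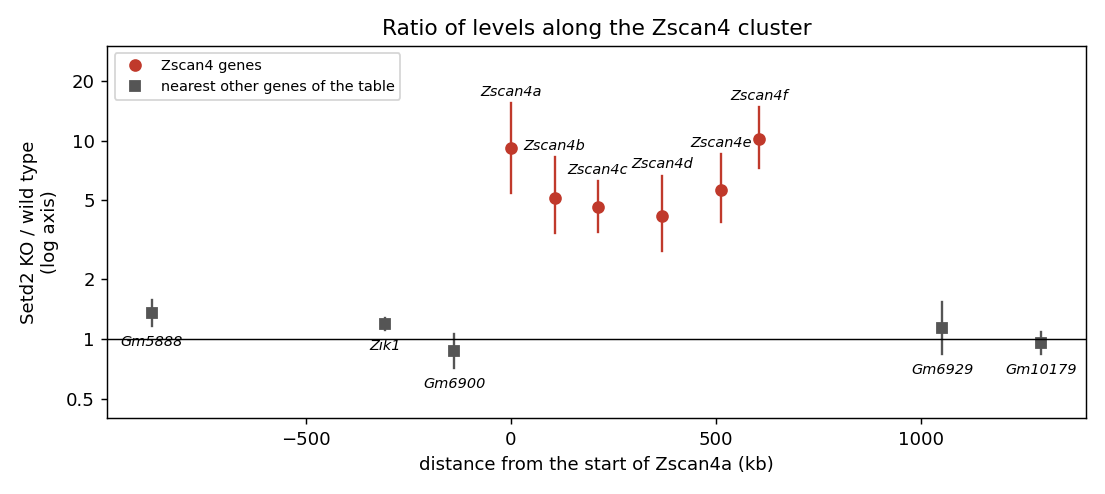
Ratio of levels, Setd2 KO library over wild-type library (log axis), along chromosome 7 by distance from the start of Zscan4a (kb), for the 6 Zscan4 genes (red circles) and the nearest other genes of the table (grey squares); bars are 95% counting intervals. The Zscan4 ratios run from 4.19 to 10.2, the neighbours drawn lie near 1, and Vmn1r82, listed at 0 in Setd2 KO cells, is not drawn.

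The members are alike before their starts as well. RefSeq promoter sequences were at hand for 4 of the 6 members (Zscan4b, Zscan4c, Zscan4d and Zscan4f). They are shown over the 216 bases that all of these share upstream of their annotated starts, 5′ to 3′ along each gene, with capitals at the 12 positions that differ. The GRCm38.p6 positions are Zscan4b chr7:10905051-10905266 on the minus strand, Zscan4c chr7:11005506-11005721 on the plus strand, Zscan4d chr7:11166183-11166398 on the minus strand and Zscan4f chr7:11397699-11397914 on the plus strand. These stretches lie before the gene starts and are credited to RefSeq.
Zscan4b: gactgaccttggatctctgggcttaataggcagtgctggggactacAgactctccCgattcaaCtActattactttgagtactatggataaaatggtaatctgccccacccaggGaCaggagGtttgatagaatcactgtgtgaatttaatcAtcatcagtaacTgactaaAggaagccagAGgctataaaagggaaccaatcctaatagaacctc
Zscan4c: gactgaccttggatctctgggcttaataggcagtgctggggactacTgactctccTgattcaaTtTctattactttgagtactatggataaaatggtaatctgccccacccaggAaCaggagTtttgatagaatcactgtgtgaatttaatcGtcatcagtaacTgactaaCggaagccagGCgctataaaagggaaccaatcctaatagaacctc
Zscan4d: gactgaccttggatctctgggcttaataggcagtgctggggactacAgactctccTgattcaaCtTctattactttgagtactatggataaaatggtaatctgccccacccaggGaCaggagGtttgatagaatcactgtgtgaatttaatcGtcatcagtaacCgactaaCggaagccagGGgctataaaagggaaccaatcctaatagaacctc
Zscan4f: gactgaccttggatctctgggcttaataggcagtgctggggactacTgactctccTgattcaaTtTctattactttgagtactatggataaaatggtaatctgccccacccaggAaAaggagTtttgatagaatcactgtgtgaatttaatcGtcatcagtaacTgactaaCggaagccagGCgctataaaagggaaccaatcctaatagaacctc
The letters TATAAA, searched on both strands over the whole window of 300 bases (250 before to 50 after the annotated start), were found in 4 of 4 member promoters and in 13.6% of all promoters (4416 of 32544). In the members the match lay on the gene's strand, and began 31 bases before the start in Zscan4b and Zscan4f, 54 in Zscan4c and 65 in Zscan4d. A match of letters is not by itself a site, and binding was not measured here.

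Other genes known from the 2-cell-like state were mostly low as well. Of 61 listed symbols 38 had a row, and 9 of these had a mean of at least 1 CPM. Among those 9, 3 were at least 2-fold higher in Setd2 KO cells and 0 lower, beside 1.76% higher and 2.11% lower over all genes compared. Of these 3, Gm2016 passed the floor only through the Setd2 KO library. The median log2 fold of the 9 was 0.21, beside 0.05 over all genes compared. Of the 36 rows above 0 in either library, 27 had a higher level in Setd2 KO cells and 9 a lower one, with a median of 0.30. Over all 17463 genes above 0 in either library, 56.0% had a higher level in Setd2 KO cells, and the median was 0.04. The 27 include Zfp352, with 1 read equivalent in each library. They also include Tdpoz3 and Rfpl4, with 1 and 3 in Setd2 KO cells and 0 in wild-type cells. Such rows hold too few reads to give a direction. Others are near copies with shared windows, so the rows are not independent and nothing is read from this count. Rpl39l, a ribosomal protein paralog, was at 9.56 CPM in Setd2 KO cells and 2.09 CPM in wild-type cells, 4.57-fold apart (3.74 to 5.65), and shared 0% of its windows. Gbp2, an interferon-induced GTPase gene, was at 5.81 CPM in Setd2 KO cells and 1.86 CPM in wild-type cells, 3.12-fold apart (2.50 to 3.95). The predicted gene Gm2016 was at 2.88 CPM in Setd2 KO cells and 0.639 CPM in wild-type cells, 4.52-fold apart (3.11 to 6.66), but shared 95% of its windows with other places. Rpl39l and Gbp2 share few or no windows, so their ratios depend little on how repeated reads were placed.

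The other 6 list genes over the floor were less than 2-fold apart. The zinc finger gene Zfp560 was at 7.02 CPM in Setd2 KO cells and 4.37 CPM in wild-type cells, 1.61-fold apart (1.36 to 1.90). The translation initiation factor gene Eif1a was at 311 CPM in Setd2 KO cells and 291 CPM in wild-type cells. Cwc15 was at 68.5 CPM in Setd2 KO cells and 59.1 CPM in wild-type cells. Zfp277, Calcoco2 and Patl2 had ratios, Setd2 KO cells over wild-type cells, of 1.01, 0.996 and 0.888.

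Dux, the factor upstream of Zscan4, has its row under an older clone name, 4933403O03Rik, matched by gene number to Duxf3 in RefSeq. It was at 0.318 CPM in Setd2 KO cells and 0.0898 CPM in wild-type cells, 3.54-fold apart (1.3 to 12.7), on 16.5 read equivalents in Setd2 KO cells and 5.0 in wild-type cells, and 90% of its windows were shared. Mostly below the floor, the 5 Eif1a-like genes of chromosome 12 (Gm5039, Gm4027, Gm8300, Gm2016 and BB287469), a group chosen after its values were seen, summed to 7.75 CPM in Setd2 KO cells and 1.5 CPM in wild-type cells, 5.16-fold apart (4.08 to 6.63). The 3 Usp17-like deubiquitinase genes (Dub1, Dub1a and Usp17l5), chosen in the same way, summed to 2.3 CPM in Setd2 KO cells and 0.916 CPM in wild-type cells, 2.51-fold apart (1.81 to 3.59). The Eif1a-like genes shared 65 to 100% of their windows and the Usp17-like genes 45 to 80%. Both sums thus depend on how repeated reads were placed, which the counting intervals do not cover. Zfp352 had 1.0 read equivalent in each library and the Tdpoz genes at most 1.8, so that no difference was detectable for them at this depth. At these depths 3 read equivalents stand for 0.0576 CPM in Setd2 KO cells and 0.0534 CPM in wild-type cells.

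**Figure D5:**
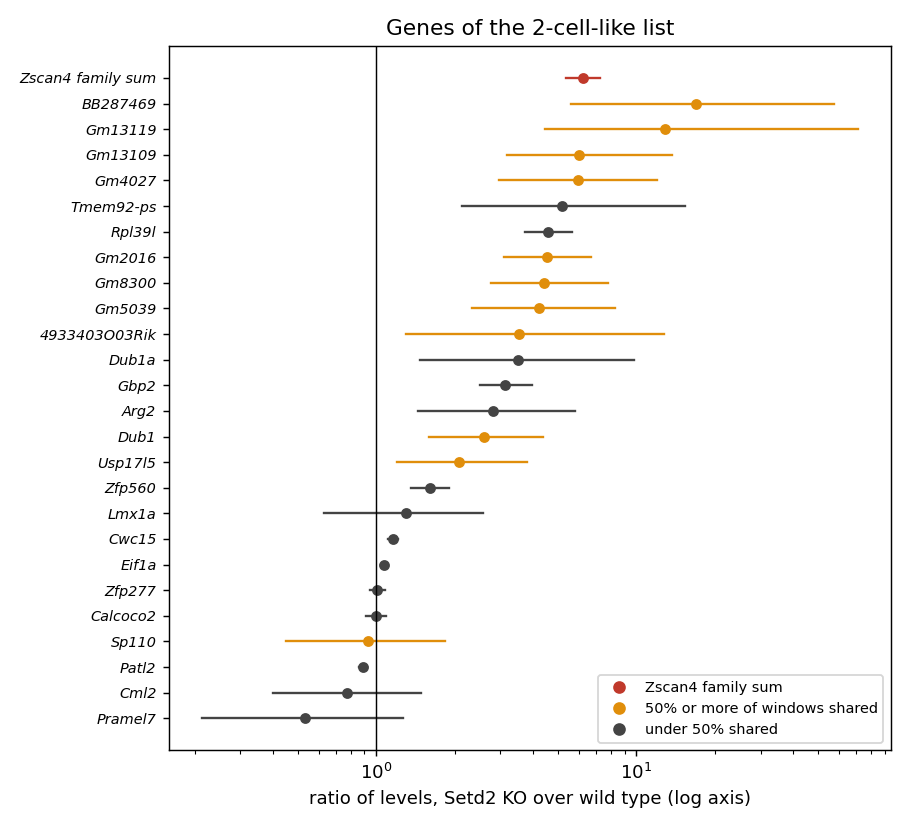
Ratio of levels, Setd2 KO library over wild-type library (log axis), for the Zscan4 family sum (red) and the 25 genes of the 2-cell-like list with at least 20 read equivalents summed over both libraries; bars are 95% counting intervals, and orange marks genes with 50% or more of their windows shared. Rpl39l and Gbp2 lie well above 1 with few or no shared windows, while Eif1a, Zfp277, Calcoco2 and Patl2 lie near 1.

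Of 11 genes with a row that are known to switch the state on, 0 were 2-fold apart in either direction, with a median log2 fold of -0.13. With 1.76% of all genes compared 2-fold higher and 2.11% lower, a count of 0 in so short a list says nothing particular about it. Dppa2 and Dppa4, which act upstream of Dux, were at 48.8 and 75.1 CPM in Setd2 KO cells, and at 47.6 and 86.5 CPM in wild-type cells. Tbx3, a T-box factor gene, was at 157 CPM in Setd2 KO cells and 144 CPM in wild-type cells. The largest absolute folds in this list belonged to Dppa3 (0.54), Smarca5 (-0.50, on chromosome 8), Sall4 (-0.48) and Gata2 (0.31). The levels of Dppa2, Dppa3 and Dppa4 are uncertain, since 70%, 60% and 75% of their windows have other places.

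Of 31 genes with a row that are known to hold the state back, 0 were 2-fold higher and 2 were 2-fold lower, with a median of -0.04. Over all genes compared, 1.76% were 2-fold higher and 2.11% lower, and nothing particular is read from these counts in so short a list. Trim28 and Setdb1, which silence repeats together, were at 1546.4 and 277 CPM in Setd2 KO cells, and at 1561.6 and 280.0 CPM in wild-type cells. The demethylase gene Kdm1a was at 382 CPM in Setd2 KO cells and 396 CPM in wild-type cells, and Rif1, which holds back Zscan4 in mouse cells, at 1174.8 CPM in Setd2 KO cells and 1173.2 CPM in wild-type cells. Zfp42 had the lowest log2 fold of the list, -2.05, at 68.1 CPM in Setd2 KO cells and 283 CPM in wild-type cells. Zfp42 lies on chromosome 8, whose genes had a median log2 fold of -0.35, and 60% of its windows were shared. The deacetylase gene Hdac1 was at 19.6 CPM in Setd2 KO cells and 55.7 CPM in wild-type cells (-1.48), with 40% of its windows shared. The DNA methyltransferase gene Dnmt3a stood at -0.94 and the transcription factor gene Max at 0.44.

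The lists for the processes that Zscan4 is known for, and for other SCAN zinc finger genes, are also short beside the 1.76% and 2.11% of all genes compared, and nothing particular is read from their counts. Among 20 telomere genes over the floor 0 were 2-fold apart, with a median log2 fold of -0.05. The telomerase gene Tert was at 43.1 CPM in Setd2 KO cells and 50.3 CPM in wild-type cells, and the telomere-binding protein gene Terf1 at 97.0 CPM in Setd2 KO cells and 53.9 CPM in wild-type cells, 1.80-fold apart. Tep1 stood at -0.71, Wrn at -0.55 and Acd at -0.39. Wrn and Acd, like Terf2 and Terf2ip of this list, lie on chromosome 8, whose genes had a median log2 fold of -0.35. Among 18 genes of meiotic recombination over the floor, 1 was 2-fold higher and 0 lower, with a median of 0.36. That 1 was Sycp2, a gene of the synaptonemal complex, at 11.1 CPM in Setd2 KO cells and 5.03 CPM in wild-type cells. Smc1b, the meiotic cohesin gene, had a log2 fold of 0.86, Msh5 0.82 and Dazl 0.80. Dmc1, the meiotic recombinase gene, was at 28.7 CPM in Setd2 KO cells and 21.9 CPM in wild-type cells. Spo11, which makes the meiotic breaks, was at 0.0493 CPM in Setd2 KO cells and 0.0661 CPM in wild-type cells, about the level of 3 read equivalents.

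Of 24 genes of the Zscan and Zkscan lists and their kin over the floor, 0 were 2-fold apart, with a median log2 fold of 0.09. Zscan10, a pluripotency factor, was at 75.8 CPM in Setd2 KO cells and 107 CPM in wild-type cells. The largest absolute folds belonged to Zscan5b (-0.62), Zkscan2 (0.55), Zscan10 (-0.49) and Zfp498 (-0.37).

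The genes with a fold nearest to that of the family sum, over 2 libraries only, were named among annotated genes over the floor of 1 CPM. They were Dnahc11, Mthfd2l, H2-T24, Scn9a, Bend6, Pion, Nefm and Mcoln3, with log2 folds of 2.63, 2.33, 2.67, 2.16, 2.16, 2.11, 2.05 and 2.03. Of these, Mthfd2l shared 55% of its windows with other places. For Dnahc11, H2-T24 and Scn9a the likeness holds only with 0.5 CPM added. Without it the ratios ran from 4.66 (Mcoln3) to 45.7 (H2-T24), with Scn9a at 20.2 and Dnahc11 at 17.5, beside 6.22 for the family sum. Those of Mthfd2l (5.88), Pion (5.85), Bend6 (7.69) and Nefm (4.83) stayed nearer to the family sum. Dnahc11, H2-T24, Scn9a and Bend6 were under 1 CPM in wild-type cells and passed the floor only through the Setd2 KO library. Nefm, a neurofilament gene, was at 11.2 CPM in Setd2 KO cells and 2.31 CPM in wild-type cells.

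Facts of the libraries stand beside these results. The depth over genes was 52041677 read equivalents for the Setd2 KO library and 56129838 for the wild-type library. Setd2 itself was at 174 CPM in Setd2 KO cells and 452 CPM in wild-type cells, 38.5% (37.6 to 39.4%). All 12 embryonic stem cell markers listed were present in both libraries, with Pou5f1 at 544 and Sox2 at 417 CPM in Setd2 KO cells, and at 558 and 458 CPM in wild-type cells. Nanog was at 310.1 CPM in Setd2 KO cells and 221 CPM in wild-type cells. The 12 markers summed to 3791.0 CPM in Setd2 KO cells and 4283.8 CPM in wild-type cells. Of them, 10 had a log2 fold below 0 and 2 above it, with a median of -0.27. Furthest from 0 were Zfp42 (-2.05, on chromosome 8), Utf1 (-0.77), Nanog (0.49) and Esrrb (-0.375). The 13 feeder fibroblast markers with a row summed to 166.6 CPM in Setd2 KO cells and 216.6 CPM in wild-type cells, with Lum at 0 in Setd2 KO cells. Over the floor, 8 of these had a log2 fold below 0 and 2 above it. Prrx1 (-1.01), Fbln2 (-0.80), Col1a2 (-0.64) and Tagln (0.63) were furthest from 0. The 12 primitive endoderm markers summed to 205.6 CPM in Setd2 KO cells and 503.4 CPM in wild-type cells, with Afp at 0 in both. Of the 9 over the floor, 7 were at least 2-fold lower and 0 higher, beside 2.11% lower and 1.76% higher over all genes compared. Cubn (-3.62), Gata6 (-2.16), Pdgfra (-1.50) and Col4a2 (-1.37) had the largest absolute log2 folds. Col4a1 and Col4a2 lie on chromosome 8, whose genes had a median log2 fold of -0.35. On chromosome Y, 5 genes had a median log2 fold of 6.20. The part of these differences in the Zscan4 levels was not tested.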

How the data were processed

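Total RNA was isolated on silica columns and turned into Illumina libraries, per the labels' protocols. The submitters' processing notes name TopHat 1.0.13, CASAVA 1.6.0 and build mm9 without their roles. The counting of reads with several places and any use of strand are not given in the sources used. The file header calls the deposited values RPKM, but the deposited values behave as log2(x + 1), where x is read equivalents of 76 bases, unscaled for depth or length. Nor is the step that made them given. This scale differs from the header's, and no count model was used.

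From these values CPM were computed over the library total, where 1 CPM stands for 52.0 read equivalents in the Setd2 KO library and 56.1 in the wild-type library. Where a symbol had several rows, the row with the highest mean was used. Folds are log2((Setd2 KO + 0.5)/(wild type + 0.5)) over genes averaging at least 1 CPM, which understates the change of low genes. Calls use a 2-fold threshold. Ratios carry no pseudocount and have exact conditional binomial 95% intervals, levels have exact Poisson intervals, and shares have exact binomial (Clopper-Pearson) intervals. All of these cover only counting error. Reads lacking molecular identifiers are not independent molecules. With 1 library per group no p-value was computed.

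Exons came from GENCODE M1 on NCBIM37, the assembly of mm9. Windows of 76 bases were compared with the genome with at most 2 mismatches, by exhaustive search for the members and with minimap2 2.31 on 20 windows per gene for other genes. Spans were aligned with mafft 7.526. Promoters and gene types are from RefSeq, GRCm38.p6. List symbols absent from the table were matched by RefSeq gene number.

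The members and the gene lists were chosen with earlier results of these data known. Named are the members, Setd2, the 2-cell-like genes over the floor, the 4 largest absolute folds of each other list, a set of defining genes, 3 neighbours on each side and the 8 genes nearest in fold. Some marker genes are given as sums only. Alternatives tried were a pseudocount of 0.1 or 1, no floor or one of 5 CPM, thresholds of 1.5 and 3 times, rescalings of the Setd2 KO library (median ratio, trimmed mean, upper quartile), other ways to sum the family, and the gene span in place of exon length.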

Additional observations from a re-analysis of the deposited data

How the results depend on the processing

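No paired analysis was possible because there was 1 library per genotype. Leaving out a library was likewise not possible. The family fold stayed between 1.94 and 2.64. It was 1.94 for the mean over the 6 members, where 0.5 CPM is added to a smaller level, and 2.23 without Zscan4f. Summing the protein-coding members alone was chosen after seeing the data and moved the fold by less than its counting interval. Member folds stayed above 0 in all 30 recomputed values, from 1.05 to 3.16, and with a pseudocount of 0.1 those of Zscan4a (2.84) and Zscan4f (3.16) moved by more than 0.5 of the log2 width of their counting interval. The count of members at least 2-fold higher was 0 with a floor of 5 CPM, which no member reaches, and 5 at 3-fold. Over all genes, 108 were higher and 194 lower with that floor, 1004 were higher and 916 lower at 1.5-fold, and 62 higher and 93 lower at 3-fold, as the floor and thresholds imply. The rescalings shifted all log2 folds by -0.03 to -0.06. Of the 63 recomputed list medians 7 moved by more than the median counting error of their genes, under the rescalings or the floor of 5 CPM. By less than that, 2 changed sign, to 0.01 for the telomere list with no floor and to -0.02 for the other SCAN zinc finger genes with a floor of 5 CPM. The ratio of the highest to the lowest member per kb was 3.25 in Setd2 KO cells and 3.29 in wild-type cells by gene span. Depth limits the members most in wild-type cells, where each rests on 17.6 to 57.8 read equivalents.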
